A study of Homo sapiens with 24 samples.

Results

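The genes of glycolysis, lactate transport and pyruvate entry into mitochondria were followed through 4 human cancer cell lines exposed to cold atmospheric plasma. The 35 genes were listed by symbol, from the plasma membrane glucose transporters to the mitochondrial pyruvate carrier, and all 35 had a row in the count tables of 61533 genes. The list sets no threshold on a measured value, but it was drawn up with earlier results of these data known. The lines were Cal27 (tongue squamous cell carcinoma), A375 (melanoma), Fadu (hypopharyngeal squamous cell carcinoma) and Hth83, a line known as an anaplastic thyroid carcinoma; the labels give the cell type of all of them as head and neck cancer and their genotype as WT. In each line 3 libraries came from untreated wells (0 s) and 3 from wells exposed for 60 s to Piezo-CAP, a cold plasma source, with RNA taken at 24 h. No transgene, deletion or second agent is given for any group, all lines grew with 10% fetal bovine serum in DMEM or, for Fadu, MEM, and each line is 1 established culture. Whether the 3 libraries of a group are 3 cultures is not stated; a p-value here sets the treatment against the library-to-library spread, which may be technical.

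Glycolysis splits glucose into pyruvate in the cytosol. Tumour cells often run it fast even with oxygen present and export the product as lactate through monocarboxylate transporters. The step from pyruvate to acetyl-CoA is made by the pyruvate dehydrogenase complex inside mitochondria, and it is held back when pyruvate dehydrogenase kinases phosphorylate the complex. Several of these genes are textbook targets of hypoxia-inducible factors (HIF), which bind the core letters ACGTG or GCGTG, and of MYC, which binds the E-box CACGTG.

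The 200 bases before the RefSeq start site (GRCh38.p14) are shown for 3 members that fell steeply in some lines (ALDOC, ENO2 and PDK1) and for 3 abundant members that rose in Hth83 and A375 (PGAM1, PKM and LDHA), to set their letters beside their values; the 6 were picked after the values were seen. Capitals mark each ACGTG or GCGTG on either strand, and CACGTG, which overlaps ACGTG. Sequences are written 5′ to 3′ on the gene's strand. ALDOC, aldolase C (ENSG00000109107.14, chr17:28573115-28577264, minus strand), has the window chr17:28576896-28577095 (minus strand). ENO2, the neuronal-type enolase (ENSG00000111674.9, chr12:6913745-6923698, plus strand), has chr12:6914380-6914579 (plus strand). PDK1, a pyruvate dehydrogenase kinase (ENSG00000152256.14, chr2:172555373-172608669, plus strand), has chr2:172555173-172555372 (plus strand). PGAM1, phosphoglycerate mutase (ENSG00000171314.9, chr10:97426160-97433441, plus strand), has chr10:97427618-97427817 (plus strand). PKM, pyruvate kinase (ENSG00000067225.20, chr15:72199029-72231822, minus strand), has chr15:72231191-72231390 (minus strand). LDHA, the lactate dehydrogenase A chain (ENSG00000134333.14, chr11:18394388-18408425, plus strand), has chr11:18394363-18394562 (plus strand).
ALDOC: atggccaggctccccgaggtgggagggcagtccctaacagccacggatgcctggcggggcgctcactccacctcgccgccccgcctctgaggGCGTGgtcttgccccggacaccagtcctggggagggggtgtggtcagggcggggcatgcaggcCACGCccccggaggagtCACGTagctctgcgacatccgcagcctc
ENO2: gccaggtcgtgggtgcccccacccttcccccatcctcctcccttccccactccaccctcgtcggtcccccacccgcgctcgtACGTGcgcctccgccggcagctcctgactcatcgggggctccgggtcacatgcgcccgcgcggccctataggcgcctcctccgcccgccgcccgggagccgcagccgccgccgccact
PDK1: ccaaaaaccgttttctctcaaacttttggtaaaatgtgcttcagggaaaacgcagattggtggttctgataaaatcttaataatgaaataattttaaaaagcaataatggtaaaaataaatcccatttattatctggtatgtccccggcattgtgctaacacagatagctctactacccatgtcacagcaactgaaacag
PGAM1: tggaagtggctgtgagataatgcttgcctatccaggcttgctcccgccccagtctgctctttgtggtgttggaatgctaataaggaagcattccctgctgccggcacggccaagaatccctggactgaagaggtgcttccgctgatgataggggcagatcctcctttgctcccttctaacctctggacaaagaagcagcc
PKM: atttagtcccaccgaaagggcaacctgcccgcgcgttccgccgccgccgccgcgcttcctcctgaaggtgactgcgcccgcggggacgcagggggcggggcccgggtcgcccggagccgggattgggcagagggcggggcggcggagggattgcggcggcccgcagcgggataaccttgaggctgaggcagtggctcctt
LDHA: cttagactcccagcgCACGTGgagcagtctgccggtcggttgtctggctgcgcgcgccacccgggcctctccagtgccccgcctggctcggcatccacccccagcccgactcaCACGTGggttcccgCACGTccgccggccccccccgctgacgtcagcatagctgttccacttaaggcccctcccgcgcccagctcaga
The core letters occurred 3 times in the ALDOC window, 1 time in that of ENO2 and 5 times in that of LDHA, and 0 times in those of PDK1, PGAM1 and PKM. Both sets of 3 hold windows with and without the letters. Each CACGTG counts 2 times, as it holds the core on both strands, so the 5 matches of LDHA are 3 marked stretches. Only the first start site listed for a gene was used. The windows of ALDOC, ENO2, PGAM1 and PKM lie inside the gene spans given above. That of LDHA begins before its gene span and ends inside it, and only that of PDK1 lies wholly before the span. A count says nothing about other start sites of the same gene. Of the 35 members 32, all but PFKFB2, SLC2A3 and SLC16A1, had a promoter in the RefSeq table, and 17 of these (53.1%) held the core against 38% of 27305 promoters of the same length. The E-box stood in 2 members (6.25%), GAPDH and LDHA, against 5.62% of all promoters. A match is a run of letters in this window and no more.

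The 24 libraries held total counts of 27.9 to 49.5 M (mega counts). Hth83 expressed 7 of 8 squamous markers at 10 CPM (counts per mega counts of the library) or more, as many as Cal27 and 1 fewer than Fadu, while 1 of 7 thyroid markers passed that level (PAX8, 128 ± 0.542 CPM, SD, n = 3) and NKX2-1 had 0 counts. A375 expressed 0 of 8 squamous and 3 of 8 melanocyte markers at that level. The summed level of the squamous list was lower after treatment, at 3389.6 to 3434 CPM untreated against 2566 to 2639 CPM in Cal27, 6290.1 to 6523 against 3477 to 3741 CPM in Fadu, and 8062 to 8399 against 5563 to 6017 CPM in Hth83, and its part in the results below was not tested. The leukocyte, fibroblast and endothelial lists summed to at most 8.84, 21.1 and 28.3 CPM in any library, and no mitochondrially encoded gene had a count, so the mitochondrial share of reads, a sign of RNA and cell quality, is not known. In bulk RNA, fewer cells of a type and less RNA per cell cannot be told apart.

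The lines took different courses through the pathway. In Hth83 18 members rose and 4 fell, and the members' share of all counts went from 1.35% ± 0.0361 to 1.76% ± 0.0191 (SD, n = 3). In Fadu 21 members fell and 6 rose, with the share at 1.26% ± 0.0142 and then 1.15% ± 0.0147. A375 divided evenly, with 15 up and 15 down, and Cal27 had 9 up and 13 down. A member counts as risen or fallen when edgeR's quasi-likelihood test gave it a Benjamini-Hochberg adjusted p below 0.05. The share was 1.49% ± 0.0304 untreated and 1.54% ± 0.0295 treated in A375, and 1.69% ± 0.0318 and 1.58% ± 0.011 in Cal27.

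These counts stand against a broad response of the transcriptome. Among all genes tested, 25.9% were higher and 24.2% lower in Hth83, 26.3% and 27% in Fadu, 25.7% and 24.8% in A375, and 21.9% and 23.2% in Cal27. Treated and untreated libraries did not overlap for 23 of the 35 members in Hth83, 26 in Fadu, 31 in A375 and 23 in Cal27. The shares among all genes tested were 57.2%, 58.6%, 57.9% and 52.7%. The 23 in Hth83 include PDK2, which was not tested there. The median log2 fold change of the members was 0.12 in Hth83, -0.21 in Fadu, 0.06 in A375 and -0.05 in Cal27, beside 0.00346, 0.0102, -0.0211 and -3.9e-06 for all genes. In Hth83 2 members (PDK2 and PDK4) and in Cal27 1 member (PDK4) were below the count filter, so 33 and 34 members were tested there, and all 35 in A375 and Fadu. Of the 101 calls of members, 62 kept their direction and their side of the threshold in every alternative processing, and the largest log2 change among the calls that did not was 0.38.

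**Figure D1:**
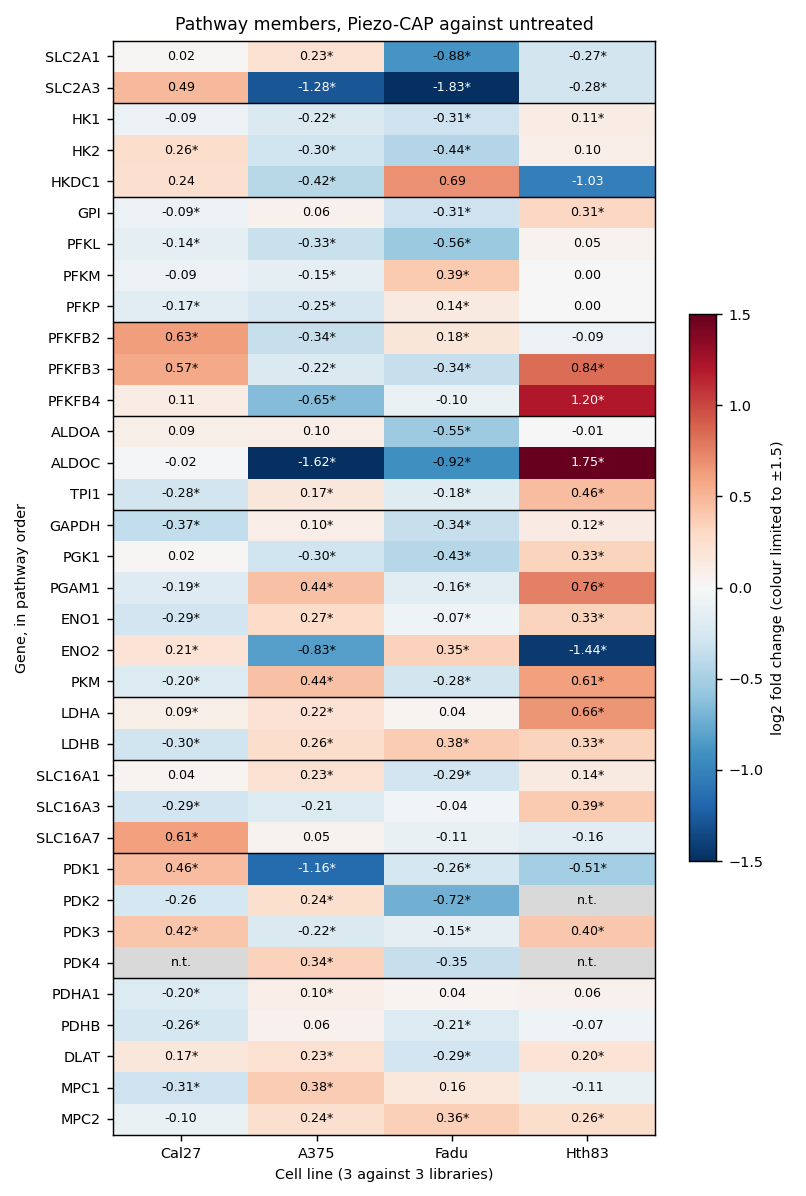
Log2 fold change of each of the 35 members (rows, in pathway order, lines between steps) in the 4 lines (columns), with a star for an adjusted p under 0.05 and n.t. for a member not tested. Red is higher after Piezo-CAP; the Hth83 column holds 18 starred rises and the Fadu column 21 starred falls.

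Scaling matters most in Cal27. On the deposited TPM, the median of all genes in Cal27 moved by 0.198 on the log2 scale, and there 16 members rose and 0 fell by limma's test. Relative to the median gene the members' median was -0.05 on both scales. In the text that follows a Cal27 fall is therefore a fall relative to other genes on TMM-scaled counts. Cal27 also had a trend with gene length, from a median of -0.119 in the shortest of 4 equal bins of genes to 0.143 in the longest, and Fadu had the opposite one, from 0.12 to -0.138. In A375, 7 members rose on the TPM scale by limma's test, with falls again at 15. Over all genes, the share of calls that were rises was 48.5% in Cal27 with TMM, 62.4% with library size as the only scaling and 83.4% on the TPM scale. It was 50.9%, 39.8% and 41.0% in A375, and 49.3% with TMM against 61.8% with library size only in Fadu. These TPM use the span from gene start to gene end as gene length for 92.2% of 42447 genes, so levels of different genes are compared below as CPM per kb of merged exon instead.

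**Figure D2:**
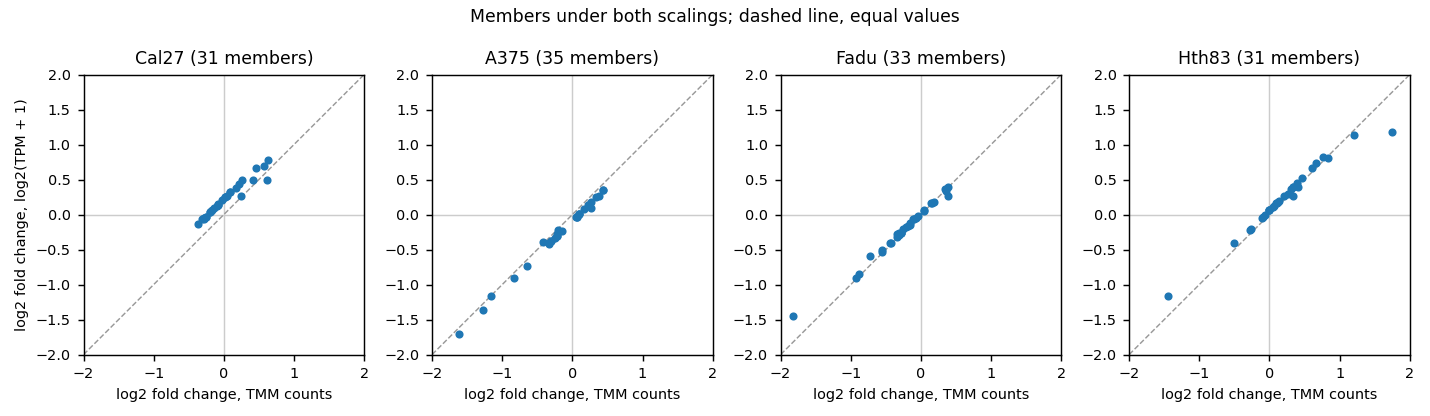
Each point is a member, with its log2 fold change on TMM-scaled counts (x) and on log2(TPM + 1) (y), in 1 panel per line. Most Cal27 points lie above the dashed line of equality, and there the median of all genes moved by 0.198.

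Untreated cells already differed in how they were equipped. Per kb of exon, GAPDH was the most abundant member in every line, at 951 ± 22.5 CPM per kb in Fadu to 1451 ± 9.1 in Hth83 (SD, n = 3), and ENO1 the next. GAPDH, ENO1, PKM and LDHA together held 60.8% to 71.4% of the members' counts in any library. Other members differed widely between lines: PFKFB4 stood at 48.2 ± 2.26 CPM per kb in A375 and at 0.276 ± 0.113 in Cal27, and SLC16A3 at 37.2 ± 0.613 in Hth83 and 0.95 ± 0.0529 in A375.

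**Figure D3:**
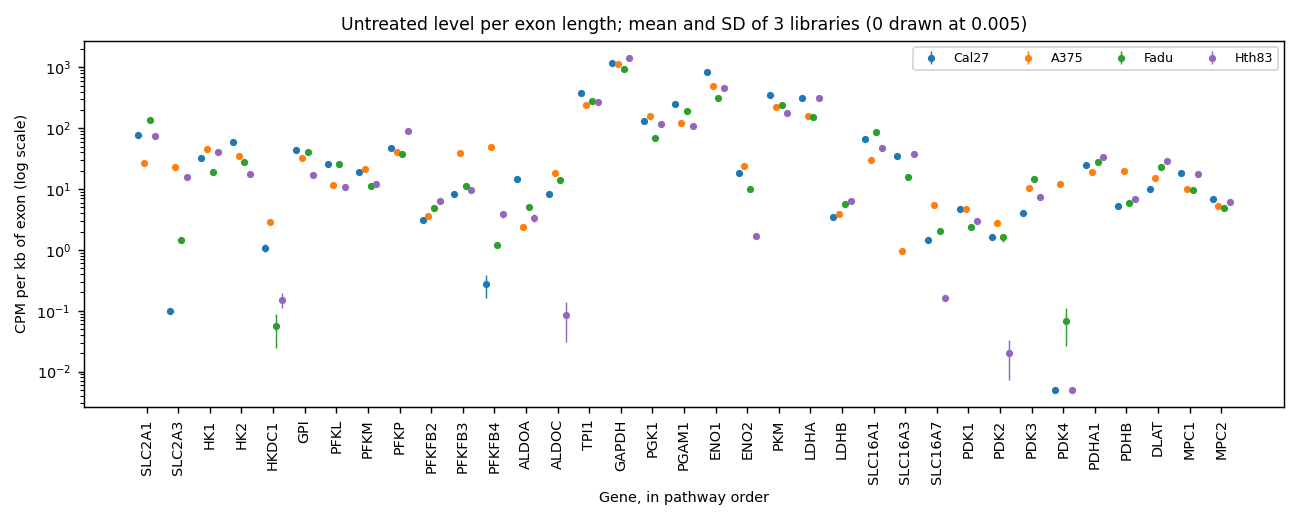
Untreated level of each member per kb of merged exon (log axis), mean and SD of 3 libraries, in colours by line. GAPDH is highest in all lines, and PDK4, with 0 counts in Cal27 and Hth83, is drawn at the bottom.

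Glucose uptake held the steepest fall of any member, that of SLC2A3 in Fadu. SLC2A1 (GLUT1) is the widespread basal glucose transporter and SLC2A3 (GLUT3) a high-affinity one. In Fadu SLC2A1 had 707, 702 and 679.9 CPM in the untreated libraries and 392, 376 and 370.5 CPM after treatment. The groups were far apart, with a log2 fold change of -0.88 ± 0.03 (SE, adjusted p = 2.79e-44). SLC2A1 also fell in Hth83, from 341, 324 and 318 to 269, 269.6 and 277 CPM, or -0.27 ± 0.04 (SE, adjusted p = 5.34e-06), with every treated library below every untreated one. In A375 it rose from 132, 140.5 and 126 to 175, 147 and 147 CPM, 0.23 ± 0.06 (SE, adjusted p = 0.00453), a call lost on the TPM scale (0.14, adjusted p = 0.247). Cal27 gave 339.6, 343 and 336 to 345, 338 and 347 CPM, with overlapping groups and 0.02 ± 0.03 (SE, adjusted p = 0.743), but passed as a rise on the TPM scale (0.25, adjusted p = 0.00107) and with library size as the only scaling (0.10, adjusted p = 0.0184). The difference of the A375 and Fadu effects was 1.07 ± 0.06 (SE, adjusted p = 6.12e-20).

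SLC2A3 went from 146, 156 and 149 to 56.9, 66.8 and 62.1 CPM in A375, -1.28 ± 0.05 (SE, adjusted p = 4.33e-19). In Fadu, where it was scarce, it fell from 9.4, 9.01 and 10.3 to 3.45, 2.51 and 2.12 CPM, -1.83 ± 0.15 (SE, adjusted p = 3.08e-19). Both lines had separate groups. In Hth83 the values went from 88.2, 86.5 and 93.7 to 68, 86.7 and 66.1 CPM, -0.28 ± 0.08 (SE, adjusted p = 0.0104); treated library 2 lay inside the untreated range and the TPM scale lost the call (adjusted p up to 0.302). Cal27 held under 1 CPM. In A375 the fall of SLC2A3 beside the rise of SLC2A1 changed the mix of the pair: per exon length SLC2A3 made up 46.5% ± 0.878 to 23.4% ± 3.05 (SD, n = 3) of the 2 transcripts, against 17.3% ± 0.995 to 17.2% ± 2.3 in Hth83, where the groups overlapped.

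Hexokinases trap glucose as glucose 6-phosphate. HK2, the inducible mitochondria-bound form, rose in Cal27 from 329, 326 and 348 to 399.9, 404 and 396 CPM, 0.26 ± 0.04 (SE, adjusted p = 2.31e-07). It fell in A375 from 220.3, 241 and 222 to 192, 184 and 181 CPM, -0.30 ± 0.04 (SE, adjusted p = 1.96e-07). In Fadu HK2 fell from 174, 180.1 and 189 to 136, 134 and 131 CPM, -0.44 ± 0.04 (SE, adjusted p = 2.21e-18). None of these 3 pairs of groups overlapped, whereas in Hth83 the values 107, 102 and 89 to 99.5, 108 and 112 CPM did (adjusted p = 0.186). The effect in Cal27 was above that in A375 by 0.58 ± 0.07 (SE, adjusted p = 3.48e-10). HK1, the constitutive form, fell in A375 (295, 314 and 299 to 254, 265 and 258 CPM, -0.22 ± 0.04 SE, adjusted p = 3.86e-06) and in Fadu (132, 124 and 124 to 105, 98.2 and 103 CPM, -0.31 ± 0.04 SE, adjusted p = 2.2e-10). Its small rise in Hth83, from 242, 242 and 229.6 to 253, 263 and 250.4 CPM (log2 0.11 ± 0.04 SE, adjusted p = 0.0479), lost the threshold when any library but treated replicate 3 was left out (adjusted p = 0.0706 to 0.193) and in DESeq2 (adjusted p = 0.0531). In Cal27 HK1 did not pass (adjusted p = 0.064), but gave -0.24 with the gene length trend removed (adjusted p = 5.1e-06). Among the hexokinases per exon length, HK2 went 63.4% ± 0.359 to 68.6% ± 0.51 in Cal27. HKDC1, a hexokinase-like protein, was above 10 CPM only in untreated A375, where it fell from 12.4, 13.3 and 12.4 to 9.36, 9.64 and 9.53 CPM, -0.42 ± 0.10 (SE, adjusted p = 0.000513).

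GPI (phosphoglucose isomerase) and the phosphofructokinases PFKL, PFKM and PFKP, which commit sugar to glycolysis, fell or did not pass in Cal27 and A375 on TMM-scaled counts, with 3 of 4 down in each; on the TPM scale all 4 were above 0 in Cal27 (0.07 to 0.15). PFKL, the liver-type subunit, fell in Fadu from 247, 244 and 249 to 171, 162 and 169 CPM, -0.56 ± 0.04 (SE, adjusted p = 3.01e-26). It also fell in A375 from 109, 111 and 112 to 87.3, 90 and 86.2 CPM, -0.33 ± 0.04 (SE, adjusted p = 6.24e-08), and over the 4 lines its mean effect was -0.26 ± 0.02 (SE, adjusted p = 1.21e-15). In Cal27 PFKL went from 220.2, 224 and 215 to 199.6, 199 and 198 CPM, -0.14 ± 0.04 (SE, adjusted p = 0.0015), but gave 0.09 on the TPM scale (adjusted p = 0.0241), and Hth83 had overlapping groups (adjusted p = 0.503). PFKM, the muscle-type subunit, moved against PFKL in Fadu: it rose from 89.3, 90.1 and 87.5 to 115, 122 and 115 CPM, 0.39 ± 0.04 (SE, adjusted p = 7.88e-14). In A375 PFKM fell from 164, 166 and 159.7 to 141, 154 and 147 CPM, -0.15 ± 0.04 (SE, adjusted p = 0.00229). PFKP, the platelet-type subunit, rose in Fadu from 198, 187 and 195 to 212, 217 and 211 CPM, 0.14 ± 0.04 (SE, adjusted p = 0.000355). In A375 PFKP fell from 200.1, 209.5 and 204 to 176, 169 and 172 CPM, -0.25 ± 0.04 (SE, adjusted p = 1.29e-06). In Cal27 PFKP went from 219, 218 and 205 to 186, 194 and 192 CPM, -0.17 ± 0.04 (SE, adjusted p = 0.000553), a fall that turned to 0.07 on the TPM scale. The subunit mix of Fadu therefore shifted, with PFKL going from 34.6% ± 0.393 to 23.7% ± 0.886 of the 3 transcripts per exon length, PFKM from 15.2% ± 0.416 to 20.3% ± 0.514 and PFKP from 50.1% ± 0.684 to 56% ± 0.372. In Hth83 the 3 shares overlapped between groups. PFKM shares 8.58% of its exon bases with SENP1 on the opposite strand, and no source used here says if counting took strand into account.

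GPI fell in Fadu from 459, 446 and 460.2 to 370.4, 365 and 366 CPM, -0.31 ± 0.03 (SE, adjusted p = 3.21e-15). In Hth83 GPI rose from 173, 173 and 163 to 209, 213 and 210.4 CPM, 0.31 ± 0.05 (SE, adjusted p = 8.48e-07). The 2 effects differed by -0.60 ± 0.05 (SE, adjusted p = 1.58e-14). Its change in Cal27, from 447, 436 and 442 to 429, 408 and 406 CPM (-0.09 ± 0.03 SE, adjusted p = 0.0283), was lost without untreated replicate 1 or treated replicate 2 or 3 (adjusted p = 0.112 to 0.146) and was 0.14 on the TPM scale (adjusted p = 0.0126). A375 did not pass (adjusted p = 0.158).

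The PFKFB enzymes make and break fructose 2,6-bisphosphate, the strongest activator of phosphofructokinase, and among members above 1 CPM they gave the largest rises in Hth83. PFKFB4 there had 19.4, 21.6 and 24.5 CPM in the untreated libraries and 58.3, 42.7 and 49 CPM after treatment, 1.20 ± 0.10 (SE, adjusted p = 2.97e-08). PFKFB3, the form with the highest kinase activity, had 54.8, 58.8 and 53.4 CPM in the untreated libraries and 95.8, 94.7 and 108 CPM after treatment, 0.84 ± 0.06 (SE, adjusted p = 5.15e-13). Both had every treated library above every untreated one, and both fell in A375, where they were most abundant: PFKFB4 from 305, 328 and 300 to 196, 206 and 194 CPM, -0.65 ± 0.04 (SE, adjusted p = 1.37e-14), and PFKFB3 from 244, 261 and 264 to 224, 218 and 219.8 CPM, -0.22 ± 0.04 (SE, adjusted p = 1.21e-05). The effects in A375 and Hth83 differed by -1.87 ± 0.17 (SE, adjusted p = 8.19e-08) for PFKFB4 and by -1.07 ± 0.07 (SE, adjusted p = 2.17e-17) for PFKFB3. In Cal27 PFKFB3 rose from 48.3, 42.6 and 49.8 to 70.9, 69.1 and 69.5 CPM, 0.57 ± 0.06 (SE, adjusted p = 5.52e-10), and in Fadu it fell from 73, 74.4 and 71.8 to 57.5, 55 and 61 CPM, -0.34 ± 0.05 (SE, adjusted p = 4.58e-09). PFKFB4 was scarce in Cal27 and Fadu, at most 2.15 and 9.02 CPM, and did not pass there. PFKFB4 shares 4.73% of its exon bases with UCN2 on the same strand, which reached 122 CPM where it was highest.

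PFKFB2, the heart-type enzyme, rose most in Cal27, from 28.9, 30.6 and 29 to 45.7, 43.7 and 47.4 CPM, 0.63 ± 0.06 (SE, adjusted p = 7.02e-10), which was the largest rise of any member there. It rose in Fadu from 54.9, 53 and 50.6 to 58.2, 58 and 63.1 CPM, 0.18 ± 0.05 (SE, adjusted p = 0.00302). In A375 PFKFB2 fell from 38.3, 40.2 and 36.7 to 29.2, 30.5 and 31 CPM, -0.34 ± 0.06 (SE, adjusted p = 2.28e-05). The groups of these 3 lines were apart. Hth83 had overlapping groups (adjusted p = 0.187). Of the 3 PFKFB transcripts per exon length, PFKFB4 went from 19.1% ± 1.89 to 27.2% ± 3.39 in Hth83 and from 52.7% ± 1.3 to 45.4% ± 0.977 in A375, and PFKFB2 from 32.1% ± 0.235 to 18.7% ± 1.31 in Hth83 and 28.1% ± 0.779 to 35.5% ± 0.728 in Fadu.

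**Figure D4:**
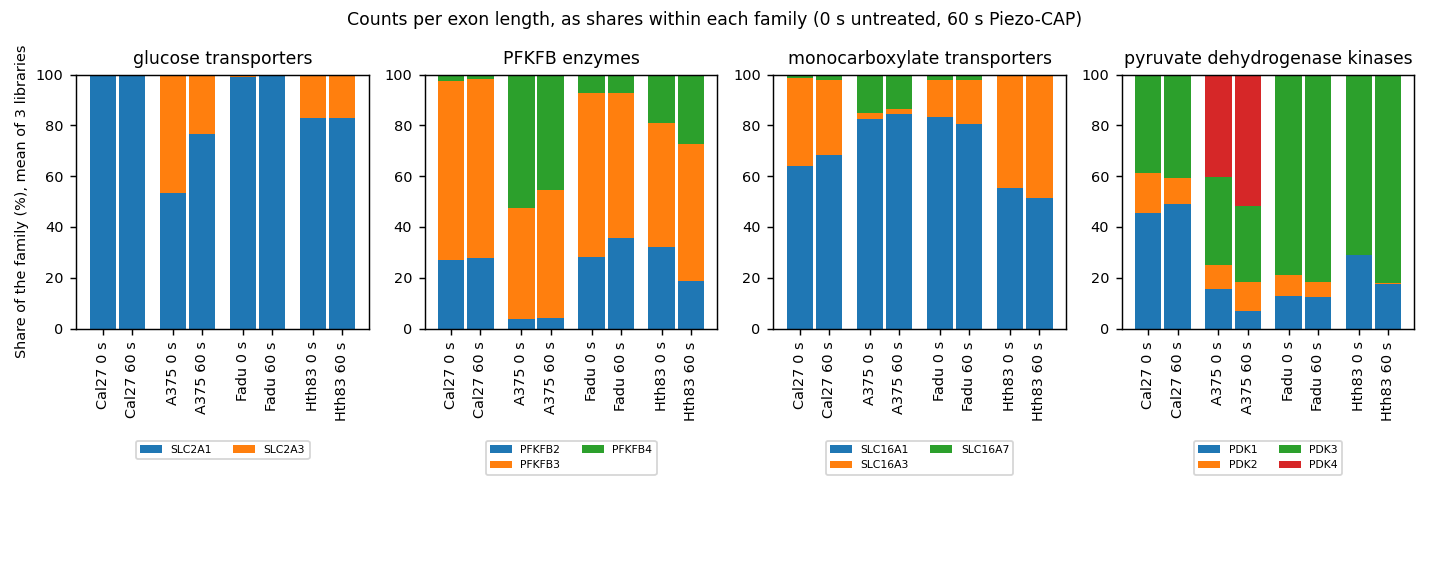
Share of each member within its family by counts per exon length (mean of 3 libraries), untreated (0 s) and treated (60 s) bars side by side for each line. SLC2A3 shrinks from 46.5% to 23.4% in A375, and PDK1 from 28.8% to 17.7% in Hth83.

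Aldolase cleaves fructose 1,6-bisphosphate, and triose phosphate isomerase (TPI1) interconverts its products. ALDOC, whose window above holds 3 core matches, fell in A375 from 53.5, 59 and 58.6 to 17.6, 18.1 and 19.7 CPM, -1.62 ± 0.06 (SE, adjusted p = 1.63e-18), the steepest fall of any member in that line. It fell in Fadu from 44.1, 42 and 43.8 to 23.1, 23.7 and 21.7 CPM, -0.92 ± 0.07 (SE, adjusted p = 4.28e-22). Both falls left no overlap between groups. Cal27 gave 23.3, 24 and 20 to 22.8, 21.8 and 21.7 CPM, with overlapping groups (adjusted p = 0.862). The A375 effect lay below that of Cal27, the difference of Cal27 and A375 being 1.62 ± 0.12 (SE, adjusted p = 2.59e-16). In Hth83 ALDOC passed as a rise, 1.75 ± 0.47 (SE, adjusted p = 0.00248), on raw counts of 10, 13 and 2 against 30, 21 and 33, under 1 CPM in every library.

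ALDOA, the main aldolase of most cells, was listed at only 9.34 to 59.1 CPM, and 42.3% of its exon bases are shared with a second gene model on the same strand, AC093512.2. How the authors' counting treated such reads is not given, so its level is uncertain and whether the shared bases lowered it was not tested. ALDOA fell in Fadu from 22.3, 20.5 and 21.3 to 15.4, 14.3 and 14.2 CPM, -0.55 ± 0.09 (SE, adjusted p = 3.82e-08), and did not pass in the other lines. In Cal27 the value of ALDOA was 0.09 ± 0.05 (SE, adjusted p = 0.183), and it passed as a rise in 7 other settings, among them 0.32 on the TPM scale (adjusted p = 0.00275), 0.23 with the gene length trend removed (adjusted p = 0.000888) and 0.17 with library size only (adjusted p = 0.00949). TPI1 rose in Hth83 from 720.1, 667 and 676 to 944, 945 and 949 CPM, 0.46 ± 0.04 (SE, adjusted p = 1.09e-10). In A375 TPI1 rose from 673, 677 and 683 to 789, 753 and 744 CPM, 0.17 ± 0.03 (SE, adjusted p = 5.79e-05). It fell in Fadu from 819.8, 793 and 807 to 738, 702 and 701 CPM, -0.18 ± 0.03 (SE, adjusted p = 1.37e-07). In Cal27 TPI1 fell from 973, 948 and 962 to 814, 766 and 794 CPM, -0.28 ± 0.03 (SE, adjusted p = 8.45e-09), though there the TPM scale gave -0.05 (adjusted p = 0.187). All 4 lines had separate groups for TPI1.

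Lower glycolysis, from GAPDH to pyruvate kinase, differed in direction between lines on TMM-scaled counts. In Hth83 5 of 6 members rose and in A375 4 of 6, while 5 of 6 fell in Fadu and 4 of 6 in Cal27. Of all genes tested, 25.9% were higher in Hth83 and 25.7% in A375, and 27% were lower in Fadu and 23.2% in Cal27. On the TPM scale the Cal27 falls did not pass, with GAPDH at -0.14, ENO1 at -0.05, PGAM1 at 0.05 and PKM at 0.03. PGAM1 had 273, 260.4 and 249 CPM in the untreated libraries and 423, 439.6 and 459 CPM after treatment in Hth83, 0.76 ± 0.05 (SE, adjusted p = 1.74e-14). It also rose in A375, from 321, 357 and 329.5 to 467, 447 and 450.3 CPM, 0.44 ± 0.04 (SE, adjusted p = 3.03e-11). In Fadu PGAM1 fell from 534, 513 and 509 to 470.4, 459 and 459 CPM, -0.16 ± 0.03 (SE, adjusted p = 2.1e-06) (-0.06 with library size as the only scaling, adjusted p = 0.0687). In Cal27 PGAM1 fell from 601, 611 and 567 to 497, 534 and 532 CPM, -0.19 ± 0.04 (SE, adjusted p = 6.56e-05), which was 0.05 on the TPM scale and -0.06 with the gene length trend removed (adjusted p = 0.209). Groups were separate in all 4 lines. The Fadu and Hth83 effects differed by -0.90 ± 0.06 (SE, adjusted p = 1.03e-18).

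PKM, the gene of the M1 and M2 pyruvate kinases, which gene counts do not separate, moved in the same directions as PGAM1. In Hth83 PKM rose from 1475, 1444 and 1389.8 to 2207, 2138 and 2239 CPM, 0.61 ± 0.04 (SE, adjusted p = 9.45e-14). In A375 PKM rose from 1992, 2048 and 1989 to 2809, 2663 and 2695 CPM, 0.44 ± 0.03 (SE, adjusted p = 4.51e-13). It fell in Fadu from 2237, 2159 and 2149.7 to 1865, 1744 and 1787 CPM, -0.28 ± 0.03 (SE, adjusted p = 4.96e-16). In Cal27 PKM fell from 2903, 2884 and 2802 to 2519.7, 2479 and 2469.6 CPM, -0.20 ± 0.03 (SE, adjusted p = 4.26e-07), or 0.03 on the TPM scale. No line had overlapping groups. Of all members PKM had the smallest interaction p (1.39e-24), the test that the treatment effect differs between lines. The effect in A375 was above that in Fadu by 0.68 ± 0.04 (SE, adjusted p = 5.86e-18).

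ENO1, the main enolase, rose in Hth83 from 2337, 2264 and 2221 to 2783, 2859 and 2951 CPM, 0.33 ± 0.04 (SE, adjusted p = 2.47e-08). In A375 ENO1 rose from 2692, 2843 and 2744 to 3452, 3234 and 3282 CPM, 0.27 ± 0.03 (SE, adjusted p = 2.23e-08). In Cal27 ENO1 fell from 4124, 4174 and 4010.2 to 3337, 3339 and 3404 CPM, -0.29 ± 0.03 (SE, adjusted p = 2.76e-10), a value of -0.05 on the TPM scale (adjusted p = 0.0847). The Fadu change, from 1813, 1759 and 1782 to 1732, 1676 and 1698 CPM (-0.07 ± 0.03 SE, adjusted p = 0.0222), was lost without untreated replicate 1 or 3 or treated replicate 2 (adjusted p = 0.0734 to 0.143) and was 0.04 with library size as the only scaling. ENO2 ran the other way in each line. It fell in Hth83 from 6.96, 7.11 and 5.98 to 2.44, 2.63 and 2.34 CPM, -1.44 ± 0.17 (SE, adjusted p = 1.6e-08). In A375 ENO2 fell from 113, 111 and 104 to 58.7, 65.6 and 60.9 CPM, -0.83 ± 0.05 (SE, adjusted p = 8.98e-15). It rose in Cal27 from 76.6, 74.4 and 73.5 to 84.2, 88.7 and 86.3 CPM, 0.21 ± 0.05 (SE, adjusted p = 0.000478). In Fadu ENO2 rose from 47.4, 41.8 and 47.6 to 59.5, 57.4 and 57.6 CPM, 0.35 ± 0.06 (SE, adjusted p = 3.64e-08). Neither enolase had overlapping groups in any line. Its share, that of ENO2, of the enolase transcripts per exon length fell from 4.66% ± 0.237 to 2.24% ± 0.194 in A375 and rose from 2.2% ± 0.0455 to 3.07% ± 0.0866 in Cal27.

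GAPDH, the dehydrogenase often used as a reference gene, was not constant. It fell in Cal27 from 3376, 3493 and 3132 to 2502, 2631 and 2579.8 CPM, -0.37 ± 0.03 (SE, adjusted p = 1.48e-10) (-0.14 on the TPM scale, adjusted p = 0.0595). In Fadu GAPDH fell from 3089.9, 3013 and 2961 to 2449, 2409 and 2308 CPM, -0.34 ± 0.03 (SE, adjusted p = 2.94e-21). Its rises were small. In Hth83 it went from 4055, 4065 and 4028 to 4439.6, 4295 and 4439 CPM, 0.12 ± 0.04 (SE, adjusted p = 0.00966), lost without treated replicate 1 (0.11, adjusted p = 0.0692). With the gene length trend removed it was 0.08 (adjusted p = 0.0702, or 0.132 with the replicate block), and with the exon length trend removed 0.07 (adjusted p = 0.111). In A375 it went from 3495, 3632 and 3625 to 4036, 3729 and 3756 CPM, 0.10 ± 0.03 (SE, adjusted p = 0.0102), lost without untreated replicate 1 (adjusted p = 0.0662) or treated replicate 1 (adjusted p = 0.0599) and 0.01 on the TPM scale (adjusted p = 0.881). The A375 value was 0.03 with library size only (adjusted p = 0.442). GAPDH has 62 named pseudogenes, which summed to at most 25.2 CPM. PGK1, phosphoglycerate kinase, the first ATP-making step, rose in Hth83 from 604, 621 and 584 to 757, 746 and 779.5 CPM, 0.33 ± 0.04 (SE, adjusted p = 5.99e-08). It fell in A375 from 887, 932 and 902 to 747, 713 and 757 CPM, -0.30 ± 0.03 (SE, adjusted p = 8.11e-09). In Fadu PGK1 fell from 415, 412 and 402 to 315, 299 and 296 CPM, -0.43 ± 0.03 (SE, adjusted p = 6.73e-22); thus in A375 PGK1 fell while its neighbours GAPDH and PGAM1 rose. Cal27 did not pass on counts (adjusted p = 0.612), but gave -0.13 with the gene length trend removed (adjusted p = 0.00157) and 0.25 on the TPM scale (adjusted p = 0.00381).

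**Figure D5:**
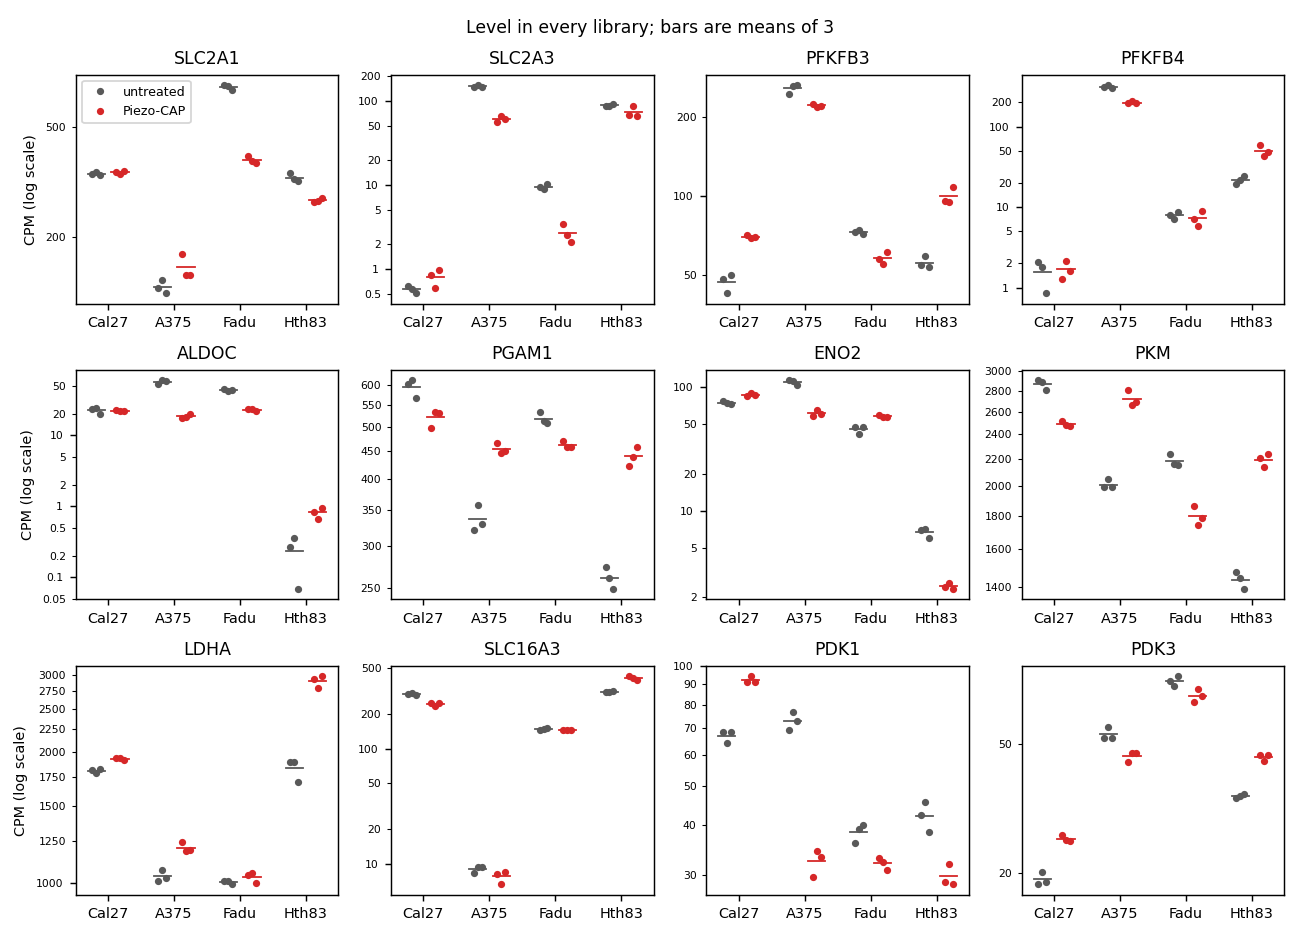
CPM (log axis) of 12 members in every library, grey for untreated and red for Piezo-CAP, with bars at group means, in 1 panel per gene and the 4 lines along the x axis. PGAM1 and PKM are higher after treatment in A375 and Hth83 and lower in Cal27 and Fadu, and PDK1 is higher in Cal27 alone.

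LDHA turns pyruvate into lactate and fell in no line. It had 1895, 1896 and 1706 CPM in the untreated libraries and 2930.4, 2795 and 2982 CPM after treatment in Hth83, 0.66 ± 0.04 (SE, adjusted p = 1.03e-13). In A375 LDHA rose from 1009, 1068 and 1027 to 1242, 1181 and 1191 CPM, 0.22 ± 0.03 (SE, adjusted p = 1.2e-06). Cal27 rose less, from 1814, 1789.7 and 1824 to 1938, 1929.8 and 1911 CPM, 0.09 ± 0.03 (SE, adjusted p = 0.00965), a call lost without untreated replicate 2 (adjusted p = 0.0614) and with the exon length trend removed (0.04, adjusted p = 0.198). Fadu gave 1012, 1012 and 992 to 1043, 1056 and 999 CPM and did not pass (adjusted p = 0.249), although it passed as a rise without treated replicate 3 (0.06, adjusted p = 0.0428), with library size only (0.14, adjusted p = 1.31e-06) and with the exon length trend removed (0.08, adjusted p = 0.00691). Over the 4 lines the mean effect of LDHA was 0.25 ± 0.02 (SE, adjusted p = 4.33e-17). The Hth83 effect exceeded that of A375, the difference of A375 and Hth83 being -0.46 ± 0.05 (SE, adjusted p = 6.62e-11).

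LDHB, the B chain, was listed at 7.31 to 23.8 CPM; 33.4% of its exon bases are shared with AC010197.2 on the same strand, so its level is uncertain, and the effect of the shared bases was not tested. It rose in Fadu from 16.5, 18.8 and 18.2 to 23.7, 23.1 and 22.7 CPM, 0.38 ± 0.08 (SE, adjusted p = 4.14e-05). In Hth83 LDHB rose from 18.5, 18 and 17.6 to 20.8, 23.4 and 23.8 CPM, 0.33 ± 0.09 (SE, adjusted p = 0.00179). In A375 LDHB rose from 12.7, 12.3 and 12 to 15.3, 14.9 and 14.2 CPM, 0.26 ± 0.09 (SE, adjusted p = 0.0163). No line had overlapping groups for LDHB. On the TPM scale these 3 rises missed the threshold (adjusted p = 0.0578, 0.0706 and 0.434). In Cal27 it fell from 9.26, 10.1 and 9.5 to 7.31, 7.77 and 8.46 CPM, -0.30 ± 0.12 (SE, adjusted p = 0.0366), lost without any 1 of untreated replicates 2 and 3 and treated replicates 1 and 2 (adjusted p = 0.0574 to 0.124), in DESeq2 (adjusted p = 0.0818) and with library size only (-0.22, adjusted p = 0.137).

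Lactate leaves through SLC16A3 (MCT4), the exporter of highly glycolytic cells, and passes both ways through SLC16A1 (MCT1). SLC16A3 rose in Hth83 from 308, 312 and 319.6 to 427, 409.5 and 393 CPM, 0.39 ± 0.04 (SE, adjusted p = 9.76e-09). In Cal27 SLC16A3 fell from 300.4, 306 and 294 to 248, 236 and 251 CPM, -0.29 ± 0.04 (SE, adjusted p = 5.58e-08), where the TPM scale gave -0.06 (adjusted p = 0.171). Every treated library thus lay above the untreated ones in Hth83 and below them in Cal27. Cal27 and Hth83 differed by -0.68 ± 0.06 (SE, adjusted p = 9.06e-14). Fadu and A375 did not pass, and A375 held under 10 CPM, though there the joint fit of 24 libraries gave -0.22 (adjusted p = 0.0112). SLC16A1 fell in Fadu from 497, 493 and 489 to 408, 412 and 389.7 CPM, -0.29 ± 0.03 (SE, adjusted p = 5.16e-14). In A375 SLC16A1 rose from 171, 175 and 162 to 208, 189 and 197 CPM, 0.23 ± 0.04 (SE, adjusted p = 1.77e-05), where the TPM scale lost the call (adjusted p = 0.078). Its rise in Hth83 (231, 239 and 225 to 260.5, 239 and 269 CPM, log2 0.14 ± 0.05 SE, adjusted p = 0.0125) had overlapping groups and was lost without untreated replicate 3 or treated replicate 1 or 3 (adjusted p = 0.0688 to 0.0837). SLC16A7 (MCT2), a high-affinity importer, rose in Cal27 from 17.5, 19.7 and 17.9 to 26.7, 29.3 and 28.1 CPM, 0.61 ± 0.08 (SE, adjusted p = 6.42e-08), and passed in no other line, except that A375 gave 0.16 with the gene length trend removed (adjusted p = 0.00365). SLC16A1 in Cal27 did not pass (adjusted p = 0.45), but was 0.27 on the TPM scale (adjusted p = 0.00653). Per exon length SLC16A3 went from 44.3% ± 1.08 to 48.5% ± 2.09 of the 3 transporters in Hth83 and from 34.6% ± 0.811 to 29.4% ± 1.1 in Cal27.

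The pyruvate dehydrogenase kinases inhibit pyruvate oxidation, and their makeup differed between lines. PDK1, a HIF target in textbooks, fell in A375 from 69, 76.6 and 72.7 to 29.6, 34.5 and 33.3 CPM, -1.16 ± 0.06 (SE, adjusted p = 4.06e-16). It fell in Hth83 from 42.4, 45.7 and 38.5 to 28.8, 32 and 28.4 CPM, -0.51 ± 0.07 (SE, adjusted p = 1.11e-06). In Fadu PDK1 fell from 36, 39 and 40.1 to 33.1, 32.3 and 30.9 CPM, -0.26 ± 0.07 (SE, adjusted p = 0.000485), where removing a trend with exon length left -0.11 (adjusted p = 0.14). In Cal27 it rose from 68.3, 64.1 and 68.2 to 91.1, 94.4 and 91.1 CPM, 0.46 ± 0.05 (SE, adjusted p = 1.38e-09). No line had overlapping groups, and Cal27 differed from A375 by 1.64 ± 0.09 (SE, adjusted p = 7.53e-21) and from Hth83 by 0.97 ± 0.09 (SE, adjusted p = 3.29e-13). The mean effect was -0.37 ± 0.03 (SE, adjusted p = 2.39e-14).

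PDK3, a kinase little inhibited by pyruvate, rose in Cal27 from 18.4, 20.1 and 18.7 to 26.2, 25.3 and 25 CPM, 0.42 ± 0.08 (SE, adjusted p = 2.71e-05). In Hth83 PDK3 rose from 34, 34.5 and 35.2 to 46.2, 44.4 and 46.5 CPM, 0.40 ± 0.06 (SE, adjusted p = 4.6e-06). It fell in A375 from 52.3, 56.8 and 52.3 to 44.2, 47 and 46.9 CPM, -0.22 ± 0.05 (SE, adjusted p = 0.000991). Its fall in Fadu (78.6, 75.9 and 81.5 to 67.7, 74.3 and 70.7 CPM, log2 -0.15 ± 0.05 SE, adjusted p = 0.00588) shrank to -0.04 with library size as the only scaling (adjusted p = 0.47) and to -0.06 with the gene length trend removed (adjusted p = 0.334), and the TPM scale gave -0.12 (adjusted p = 0.163). It was -0.12 without untreated replicate 3 (adjusted p = 0.0648) or treated replicate 1 (adjusted p = 0.0591). PDK3 groups were apart in all 4 lines. In Hth83 the opposite moves of PDK1 and PDK3 took PDK3 from 71% ± 2.04 to 81.9% ± 1.33 of the 4 kinase transcripts per exon length. PDK4, the kinase induced by fasting, was an A375 gene: it rose there from 57.5, 53.2 and 59.9 to 70, 76.7 and 69.4 CPM, 0.34 ± 0.05 (SE, adjusted p = 2.6e-06), and had 0 counts in all 6 libraries of Cal27 and of Hth83, which allows at most 0.108 and 0.101 CPM in any library by counting error (3 counts). In Fadu it stayed under 1 CPM. In A375 PDK4 went from 40.3% ± 2.48 to 51.7% ± 1.47 of the kinase transcripts. PDK2, the widespread kinase, fell in Fadu from 7.73, 10.1 and 10.3 to 5.76, 5.98 and 5.33 CPM, -0.72 ± 0.13 (SE, adjusted p = 1e-06). In A375 PDK2 rose from 15.3, 16.6 and 15.5 to 20.3, 16.9 and 18.8 CPM, 0.24 ± 0.08 (SE, adjusted p = 0.0203), lost without any 1 of untreated replicates 1 and 3 and treated replicates 1 and 3 (adjusted p = 0.0548 to 0.0968), with 0.16 with library size only (adjusted p = 0.104) and 0.13 on the TPM scale (adjusted p = 0.215). It had 1 to 9 counts a library in Hth83 and was not tested there. PDK2 shares 38.6% of its exon bases with SAMD14 on the opposite strand.

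Pyruvate enters mitochondria through MPC1 and MPC2, and PDHA1, PDHB and DLAT are the E1 and E2 subunits of the dehydrogenase. In A375 4 of these 5 rose and 0 fell, and in Cal27 1 rose and 3 fell. In Fadu 1 rose and 2 fell, and in Hth83 2 rose and 0 fell. The shares of all genes tested that were higher or lower in each line, given above, apply here too. MPC1 rose in A375 from 16, 16.8 and 15.7 to 22.8, 20.3 and 20.2 CPM, 0.38 ± 0.08 (SE, adjusted p = 0.000172). In Cal27 MPC1 fell from 28.3, 25.5 and 25.5 to 22.1, 20.4 and 21.3 CPM, -0.31 ± 0.08 (SE, adjusted p = 0.000987) (-0.07 on the TPM scale, adjusted p = 0.369). In Fadu MPC1 did not pass (adjusted p = 0.131), but was 0.26 with library size only (adjusted p = 0.00913). MPC2 rose in Fadu from 14.1, 13.3 and 13.1 to 18.3, 17.1 and 16.6 CPM, 0.36 ± 0.09 (SE, adjusted p = 0.00044). Its rise in A375 (0.24) missed the threshold when replicate 3 of either group was left out (adjusted p up to 0.0869). Its rise in Hth83 (0.26) missed it without treated replicate 2 or untreated replicate 1 (adjusted p up to 0.0719). MPC2 shares 22.5% of its exon bases with DCAF6 on the opposite strand. DLAT rose in A375 from 73.1, 80.3 and 76.3 to 90.7, 91.5 and 86.9 CPM, 0.23 ± 0.05 (SE, adjusted p = 0.000106) (0.13 on the TPM scale, adjusted p = 0.0998). In Hth83 DLAT rose from 134, 130.5 and 127 to 149, 145 and 157 CPM, 0.20 ± 0.05 (SE, adjusted p = 0.000642). It fell in Fadu from 123, 118 and 117 to 99.4, 97.7 and 96 CPM, -0.29 ± 0.04 (SE, adjusted p = 3e-09). DLAT groups were apart in all 4 lines. Its rise in Cal27, from 45.4, 46.3 and 45.4 to 51, 51 and 52 CPM, 0.17 ± 0.06 (SE, adjusted p = 0.0126), missed the threshold without treated replicate 3 (adjusted p = 0.0522).

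PDHA1 fell in Cal27 from 107, 101 and 103 to 92.7, 87.8 and 91.5 CPM, -0.20 ± 0.04 (SE, adjusted p = 0.000555), but was 0.04 on the TPM scale. Its rise in A375, from 91.5, 87.4 and 89.2 to 98.5, 93.7 and 95.8 CPM (0.10 ± 0.04 SE, adjusted p = 0.0472), was lost without any 1 of untreated replicates 2 and 3 and treated replicates 1 and 3 (adjusted p = 0.0825 to 0.156). It was 0.03 with library size only (adjusted p = 0.565) and 0.01 on the TPM scale (adjusted p = 0.75). PDHB fell in Cal27 (26.4, 20.8 and 24 to 17.8, 19 and 22.4 CPM, log2 -0.26 ± 0.09 SE, adjusted p = 0.0183) and in Fadu (31.7, 26.7 and 30.8 to 27.1, 25.6 and 24.6 CPM, log2 -0.21 ± 0.07 SE, adjusted p = 0.0137), with overlapping groups in both. Both calls missed the threshold, with the same direction, when certain libraries were left out 1 at a time. In Cal27 these were untreated replicates 1 and 3 and treated replicates 1 and 2 (log2 -0.25 to -0.18, adjusted p = 0.0538 to 0.156), and in Fadu untreated replicates 1 and 3 and treated replicate 3 (log2 -0.18 to -0.15, adjusted p = 0.0623 to 0.128). PDHB was -0.03 in Cal27 on the TPM scale (adjusted p = 0.878) and -0.13 with the gene length trend removed (adjusted p = 0.282), and -0.10 in Fadu with library size only (adjusted p = 0.247).

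Across the lines, 26 of the 35 members rose in at least 1 line and fell in at least 1 other. A further 4 only rose (LDHA, SLC16A7, PDK4 and MPC2) and 5 only fell (SLC2A3, HKDC1, PFKL, ALDOA and PDHB), and 0 moved one way in all 4 lines. The share of all genes with such opposite calls was not counted. In each line 21.9% to 26.3% of all genes tested were higher and 23.2% to 27% lower. Some of the 26 patterns rest on calls that other settings lost, such as the rises of HK1 in Hth83 and of PDHA1 in A375. Fitted together, 34 members had a treatment effect that differed between lines (adjusted interaction p under 0.05), against 56.9% of all genes; the member that did not was PDK4 (adjusted p = 0.651), which had counts mainly in A375. For the mean effect over lines 10 members were higher and 11 lower, beside 20.6% and 18.3% of all genes. The largest mean rises were those of LDHA, PFKFB3 at 0.21 ± 0.03 (SE, adjusted p = 3.15e-09) and PGAM1 at 0.20 ± 0.02 (SE, adjusted p = 3.14e-12), and the largest mean falls were SLC2A3 at -0.73 ± 0.10 (SE, adjusted p = 1.52e-07) and ENO2 at -0.43 ± 0.04 (SE, adjusted p = 1.92e-14).

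Between pairs of lines, 27 members differed for Cal27 and A375 (35.5% of all genes did), 25 for Cal27 and Fadu (38.4%) and 26 for Cal27 and Hth83 (35%). The counts were 22 for A375 and Fadu (36%), 22 for A375 and Hth83 (27.3%) and 29 for Fadu and Hth83 (35.7%). Against Hth83 the effect was lower for 19 members in Cal27, 19 in A375 and 22 in Fadu, and higher for 7, 3 and 7. Over all genes 17.2%, 13.7% and 17.6% were lower and 17.8%, 13.6% and 18.1% higher. Within A375 the pathway itself was split: PGAM1, PKM, ENO1, TPI1 and LDHA rose while SLC2A3, HK2, PFKL, PFKFB4, ALDOC, PGK1, ENO2 and PDK1 fell.

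Genes around the pathway were read from lists. Of 15 hypoxia targets outside glycolysis, 14 fell and 0 rose in A375, and 13 fell and 1 rose in Fadu. In Hth83, where 13 of the 15 were tested, 9 fell and 1 rose, and in Cal27 2 fell and 7 rose. The median log2 changes were -0.71 in A375, -0.71 in Fadu, -0.52 in Hth83 and 0.07 in Cal27. Of all genes tested, 24.8% were lower and 25.7% higher in A375, and 27% and 26.3% in Fadu. These shares were 24.2% and 25.9% in Hth83, and 23.2% and 21.9% in Cal27. NDRG1, a stress and hypoxia-induced gene, fell in Hth83 from 500.1, 572 and 573 to 172, 209 and 163 CPM, -1.60 ± 0.10 (SE, adjusted p = 7.64e-06). In Fadu NDRG1 fell from 904, 903 and 938 to 436, 411 and 393 CPM, -1.15 ± 0.03 (SE, adjusted p = 1.58e-48). In A375 NDRG1 fell from 202, 216 and 203 to 114, 109 and 104 CPM, -0.92 ± 0.04 (SE, adjusted p = 2.3e-17). In Cal27 it rose from 332, 334 and 345 to 515, 489.6 and 495 CPM, 0.57 ± 0.03 (SE, adjusted p = 6.78e-15). The groups of NDRG1 were apart in every line. VEGFA, the vascular growth factor, fell in Hth83 from 979, 946 and 1041 to 379.7, 432 and 349 CPM, -1.35 ± 0.06 (SE, adjusted p = 7.89e-12). In Hth83 these falls stood beside the rises of LDHA, PGK1, ENO1 and PFKFB4, which textbooks also list as hypoxia targets. Of all members, 18 rose and 4 fell in Hth83. The members that fell were PDK1 (-0.51), ENO2 (-1.44), SLC2A1 (-0.27) and SLC2A3 (-0.28). HIF1A itself, the oxygen-labile HIF subunit, fell in Fadu (274, 277 and 270.2 to 245, 251 and 229 CPM, log2 -0.18 ± 0.03 SE, adjusted p = 4.85e-06) and Hth83 (264, 272 and 262 to 232, 234 and 252 CPM, log2 -0.15 ± 0.05 SE, adjusted p = 0.00587), calls that other settings did not all keep (highest adjusted p 0.0725 and 0.314). In A375 HIF1A rose from 313, 322 and 325 to 332, 347 and 341 CPM, 0.09 ± 0.03 (SE, adjusted p = 0.0285), with separate groups, and other settings lost that call too (highest adjusted p 0.97). Cal27 did not pass (adjusted p = 0.307). Of 10 HIF regulators 6 rose and 0 fell in Cal27, 3 rose and 5 fell in A375, 2 and 6 in Fadu, and 0 and 2 in Hth83. Of these 10, 9 were tested in Cal27, A375 and Fadu and 8 in Hth83, and the shares of all genes above apply here too.

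TXNIP, an arrestin that restrains glucose uptake and is switched on by the glucose sensors MLXIP and MLXIPL, moved furthest of its list of 10 regulators in Fadu and A375. In Fadu it had 17.3, 15.6 and 16.4 CPM in the untreated libraries and 274, 301 and 294 CPM after treatment, 4.14 ± 0.05 (SE, adjusted p = 2.01e-82), and in A375 191, 195 and 209.9 CPM in the untreated libraries and 17, 19.7 and 15.6 CPM after treatment, -3.51 ± 0.06 (SE, adjusted p = 3.33e-24). Its relative ARRDC4 went from 4.7, 5.91 and 5.47 to 57.9, 61.8 and 60.5 CPM in Fadu, 3.48 ± 0.08 (SE, adjusted p = 7.96e-58), and from 18.2, 16.9 and 19.8 to 8.3, 8.02 and 8.42 CPM in A375, -1.15 ± 0.09 (SE, adjusted p = 1.39e-11). In Fadu TXNIP thus rose as SLC2A1 and SLC2A3 fell, and in A375 TXNIP fell as SLC2A1 rose and SLC2A3 fell. In Hth83, where both transporters fell, log2 changes of the tested genes of this list ran from -1.87 to 1.51. They ran from -0.57 to 0.20 in Cal27, where neither transporter passed on TMM-scaled counts. These ranges do not show which way TXNIP itself moved in Hth83 and Cal27. Its pairing with the transporters is thus described for Fadu and A375 only. A link between TXNIP and the transporters was not tested. MYC, a driver of glycolytic genes, fell in Cal27 from 611, 606 and 614 to 430.3, 406 and 400.5 CPM, -0.57 ± 0.03 (SE, adjusted p = 6.18e-15), and kept that call in the 13 other settings that use all libraries (highest adjusted p 0.00318). It also fell in Fadu, from 197, 194 and 196 to 188, 182 and 183 CPM, -0.09 ± 0.04 (SE, adjusted p = 0.0345). In A375 MYC rose from 17.2, 18.7 and 17.9 to 24, 18.3 and 22.7 CPM, 0.27 ± 0.09 (SE, adjusted p = 0.00922), with overlapping groups. In Hth83 it rose from 198, 208 and 209 to 209, 229.9 and 233 CPM, 0.13 ± 0.05 (SE, adjusted p = 0.0271). These 3 calls were not kept in every setting (highest adjusted p 0.681, 0.383 and 0.181). Of the 10 MYC and glucose sensing regulators, 9 were tested in Cal27, A375 and Fadu and 8 in Hth83. In Cal27 1 rose and 4 fell, beside 21.9% and 23.2% of all genes tested. The counts were 4 and 3 in A375 (25.7% and 24.8%), 4 and 1 in Fadu (26.3% and 27%), and 5 and 3 in Hth83 (25.9% and 24.2%).

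Among 33 other glycolysis and pyruvate genes, 18 were tested in Cal27, 24 in A375, 22 in Fadu and 20 in Hth83. In Cal27 3 rose and 6 fell, beside 21.9% and 23.2% of all genes tested. The counts were 6 and 8 in A375 (25.7% and 24.8%), 6 and 9 in Fadu (26.3% and 27%), and 6 and 6 in Hth83 (25.9% and 24.2%). Pyruvate has a second mitochondrial fate through pyruvate carboxylase (PC), which makes oxaloacetate, and PCK2, which turns oxaloacetate into phosphoenolpyruvate. Both fell in all 4 lines on TMM-scaled counts. PC in Hth83 went from 146, 147 and 178 to 60.4, 67.1 and 54.7 CPM, -1.37 ± 0.09 (SE, adjusted p = 1.37e-08), and its log2 change was -0.27 in Cal27, -0.29 in A375 and -0.79 in Fadu. PCK2 in Hth83 went from 134, 136 and 148 to 32.3, 34.4 and 30.9 CPM, -2.10 ± 0.06 (SE, adjusted p = 2.11e-22). In A375 PCK2 fell from 96.2, 85.9 and 87.7 to 25.8, 29.1 and 31.2 CPM, -1.64 ± 0.06 (SE, adjusted p = 3.95e-19), with -0.35 in Cal27 and -0.73 in Fadu. The Cal27 calls were lost on the TPM scale, with adjusted p up to 0.695 for PC and 0.279 for PCK2, and those of the other lines were kept in those 13 settings. PDP1, one of a pair of phosphatases that reactivate pyruvate dehydrogenase, fell in Cal27 (-0.41, adjusted p up to 0.0842 in other settings), Fadu (-0.53) and Hth83 (-0.38, up to 0.0508). In A375 PDP1 rose from 109, 106 and 104 to 139.7, 133 and 133 CPM, 0.34 ± 0.04 (SE, adjusted p = 2.19e-08). PDP2, the other phosphatase, went the other way where PDP1 fell. It rose in Cal27 from 33, 30.1 and 35.6 to 45.9, 45.5 and 43.7 CPM, 0.45 ± 0.07 (SE, adjusted p = 7.03e-07). In Fadu PDP2 rose from 28.8, 28.6 and 36 to 44.2, 44.3 and 44.5 CPM, 0.51 ± 0.07 (SE, adjusted p = 4.52e-10). In Hth83 PDP2 rose from 41.5, 45.6 and 46.2 to 61.8, 66.6 and 59.5 CPM, 0.50 ± 0.06 (SE, adjusted p = 9.85e-08). In A375 it did not pass (adjusted p = 0.0946). The 3 rises of PDP2 were kept in those 13 settings (highest adjusted p 0.0058, 0.0241 and 0.00724). BSG (basigin), the chaperone of SLC16A1 and SLC16A3, fell in Cal27 from 911, 938 and 881 to 725, 711 and 716 CPM, -0.34 ± 0.03 (SE, adjusted p = 1.63e-10). In A375 BSG rose from 475, 490.4 and 478 to 552, 527 and 537 CPM, 0.16 ± 0.03 (SE, adjusted p = 0.000126), a call that another setting lost (adjusted p up to 0.136).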

How the data were processed

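RNA was sequenced from 24 libraries (HiSeq3000, SMARTER mRNA-Seq kit, per the labels' protocols). The authors deposited raw counts and TPM for 61533 genes, with HISAT2 and GRCh38 named in the submitters' processing notes; for the counter, the annotation and the use of strand, nothing is given in the sources used here. The deposited TPM use the gene span, introns included, as length for 92.2% of genes, so TPM served only as an alternative. Each line was fitted alone on counts with edgeR 4.0.16 in R 4.3.3 (quasi-likelihood, TMM, filterByExpr with a minimum count of 10 and total of 15), with p-values Benjamini-Hochberg adjusted over all genes and a threshold of 0.05. A fit of all 24 libraries as 8 group means gave the interaction, mean effect and line pairs. Fold changes are treated minus untreated on the log2 scale, SE is the log2 fold change divided by the root of F, and the ± of levels and shares is an SD of 3 libraries. Levels per kb use GENCODE 29 merged exons, and promoters are from RefSeq. Merged exons join the exons of all transcripts of a gene, for example 14883 bp for PDK1 and 4519 bp for PDK4. They can be longer than the transcript in use, so levels and shares of different genes depend on these lengths.

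The members and lists were chosen with earlier results of these data known. Per-library values are given, by rule, for members past the threshold with at least 10 CPM in the higher group and no overlap of groups (up to 5 per direction and line) and for members of opposite direction in different lines; PC, PCK2, PDP1, PDP2, BSG, TXNIP, ARRDC4, HIF1A and some weaker members were named after their values were seen. Alternatives were DESeq2 1.42.0, limma 3.58.1 on log2(TPM + 1) and log2(TPM + 0.1), other scalings and filters, length trends removed (the exon length trend was added after seeing the data), a replicate block and each library left out. The scripts were tested on simulated data. Intervals and floors of 3 counts cover counting error only, and 3 against 3 libraries cannot go below an exact permutation p of 0.1.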

Additional observations from a re-analysis of the deposited data

Results flagged for a closer look

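For 34 of the 35 members the treatment effect differed between the lines (interaction F test, line against treatment, in edgeR's quasi-likelihood fit of 24 libraries, Benjamini-Hochberg adjusted over 23642 genes), and 56.9% of all genes passed the same test. The adjusted p-values follow by step, and the fold changes in each line stand with the step in the report.

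Glucose uptake had an adjusted p of 2.62e-20 for SLC2A1 and 2.08e-12 for SLC2A3. Hexokinases had an adjusted p of 6.41e-08 for HK1, 1.97e-13 for HK2 and 0.002 for HKDC1. Phosphoglucose isomerase and phosphofructokinase had an adjusted p of 8.4e-14 for GPI, 2.27e-12 for PFKL, 4.21e-11 for PFKM and 4.55e-09 for PFKP. Fructose 2,6-bisphosphate enzymes had an adjusted p of 5.75e-14 for PFKFB2, 9.56e-21 for PFKFB3 and 2.23e-07 for PFKFB4. Aldolase and triose phosphate isomerase had an adjusted p of 7.53e-06 for ALDOA, 4.5e-18 for ALDOC and 7.38e-19 for TPI1. Lower glycolysis had an adjusted p of 3.23e-15 for GAPDH, 8.27e-19 for PGK1, 5.26e-21 for PGAM1, 8.64e-18 for ENO1, 8.55e-22 for ENO2 and 1.39e-24 for PKM. Lactate dehydrogenase had an adjusted p of 8.96e-16 for LDHA and 3.99e-05 for LDHB. Monocarboxylate transporters had an adjusted p of 1.26e-09 for SLC16A1, 1.88e-13 for SLC16A3 and 4.78e-08 for SLC16A7. Pyruvate dehydrogenase kinases had an adjusted p of 1.04e-20 for PDK1, 1.92e-05 for PDK2 and 1.85e-11 for PDK3. Pyruvate dehydrogenase and pyruvate carrier had an adjusted p of 0.000158 for PDHA1, 0.038 for PDHB, 9.02e-10 for DLAT, 5.71e-06 for MPC1 and 0.00533 for MPC2. Directions were opposite in at least 1 pair of lines for 26 members by their calls, and the share of all genes with opposite calls was not counted. PDHB, with the largest of these p-values, fell in Cal27 and Fadu by calls that missed the threshold when certain libraries were left out, with the direction unchanged.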

How the results depend on the processing

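Counts of members that rose or fell stayed within 1.5 times of those reported in all settings but these. In Cal27, 16 members rose and 0 fell with limma on log2(TPM + 1), on log2(TPM + 0.1) and without a filter, against 9 and 13, and 8 fell with library size as the only scaling. In A375, 7, 7 and 4 members rose in those limma settings, against 15. On the TPM scale in Cal27 the sign turned for GPI (0.14), PFKL (0.09), PFKM (0.15), PFKP (0.07), PGAM1 (0.05), PKM (0.03) and PDHA1 (0.04). It also turned for HK1 (0.14), ALDOC (0.21) and MPC2 (0.12), which passed neither on TMM-scaled counts nor on the TPM scale. With the gene length trend removed, PGK1 in Cal27 was -0.13, also with the replicate block, and ENO1 in Fadu was 0.04 with library size only. The cause of these moves was not tested. Without 1 library, 8 to 9 members rose and 11 to 13 fell in Cal27, 12 to 15 and 15 in A375, 6 to 8 and 18 to 21 in Fadu, and 15 to 17 and 4 in Hth83. The interaction held for 33 to 34, the mean effect was higher for 10 to 11 and lower for 11 to 13, and line pairs differed for 20 to 29 members. Same-numbered libraries correlated at -0.0226 to 0.0355, below the 0.1 set as the level needed to treat them as pairs. Low correlations cannot show that the samples were not paired. With a replicate block 9 members rose and 13 fell in Cal27, 14 and 15 in A375, and 6 and 21 in Fadu. The block gave 17 and 4 in Hth83, and the interaction held for 33. Of the 101 calls, 62 held in every alternative, 37 missed the threshold in at least 1 and 7 changed sign; 16 of 36 members tested but not called passed in some setting. Depth limits PDK4 in Cal27, Fadu and Hth83, PDK2 and ALDOC in Hth83 and SLC2A3 in Cal27, each under 1 CPM. It also limits HKDC1 in Fadu and Hth83, again under 1 CPM. In Hth83 HKDC1 was at -1.03 with separate groups and did not pass in edgeR's fit of that line (adjusted p = 0.0652). It passed in the joint fit of 24 libraries (adjusted p = 0.0157).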
